A study of Mus musculus with 670 samples.

Results

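Insulin-like growth factor 1 (Igf1), its receptor (Igf1r), the second receptor of the family (Igf2r) and 6 secreted binding proteins (Igfbp2 to Igfbp7) were followed across age in single cells sorted as skeletal stem cells from mouse long bones. These 9 genes were taken by name from the 55604 gene rows of the expression table, without Igf2, and each of the 9 had reads in at least 1 cell that passed the filter. All cells came from male mice, were sorted by flow cytometry from digested bone, were neither cultured nor treated, and were sequenced with SmartSeq2, a full-length method that gives each cell its own library. The mouse strain, the pooling of animals and the surface markers of the sort are not given in the sources used here. The 670 wells lay on 7 plates. Postnatal day 3 had plate 9 (batch 3), with 95 wells. The age of 2 months had plates 1, 3 and 4 (batches 4, 5 and 1), with 96, 96 and 95 wells, and the age of 24 months had plates 2, 5 and 12 (batches 3, 2 and 3), with 96 wells each.

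Igf1 is a secreted hormone made by the liver and by many local tissues, and in bone it drives growth of cartilage and activity of osteoblasts. It acts through Igf1r, a tyrosine kinase receptor that signals through insulin receptor substrates, PI3 kinase and Akt. Igf2r has no kinase and takes Igf2 and mannose-6-phosphate tagged enzymes to the lysosome. The binding proteins hold the growth factors outside the cell, where they can withhold them, carry them or store them in the matrix, and they are released by proteases such as Pappa.

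The sequence before the start of 5 of the genes is given here for the ligand Igf1, for Igfbp4 and Igfbp6, which most newborn cells with Igf1 also held, and for both receptors. Each is the 250 bases upstream of the RefSeq start on the strand of the gene, 5′ to 3′, in build GRCm38.p6. The start used for Igf1 lies inside the span given for that gene in the next paragraph. Its window is therefore not upstream of the whole gene. Capitals mark a TATA box (the letters TATAAA), a GC box (the letters GGGCGG) and a CCAAT box, each searched on either strand.
Igf1 (chr10:87860861-87861110, plus strand): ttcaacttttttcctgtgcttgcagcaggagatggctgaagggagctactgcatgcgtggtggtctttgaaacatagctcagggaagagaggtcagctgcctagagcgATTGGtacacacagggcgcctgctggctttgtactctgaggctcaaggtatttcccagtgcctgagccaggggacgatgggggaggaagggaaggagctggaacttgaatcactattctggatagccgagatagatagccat
Igfbp4 (chr11:99040994-99041243, plus strand): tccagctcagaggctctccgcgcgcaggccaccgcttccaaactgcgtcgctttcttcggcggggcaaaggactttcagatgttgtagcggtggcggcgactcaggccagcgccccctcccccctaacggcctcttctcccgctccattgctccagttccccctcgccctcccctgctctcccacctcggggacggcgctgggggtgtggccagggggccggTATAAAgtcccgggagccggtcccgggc
Igfbp6 (chr15:102143936-102144185, plus strand): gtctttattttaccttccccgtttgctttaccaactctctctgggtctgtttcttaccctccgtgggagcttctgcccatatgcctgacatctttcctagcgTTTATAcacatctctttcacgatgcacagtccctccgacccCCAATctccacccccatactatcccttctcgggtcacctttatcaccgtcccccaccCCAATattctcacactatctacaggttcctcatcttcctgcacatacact
Igf1r (chr7:67952007-67952256, plus strand): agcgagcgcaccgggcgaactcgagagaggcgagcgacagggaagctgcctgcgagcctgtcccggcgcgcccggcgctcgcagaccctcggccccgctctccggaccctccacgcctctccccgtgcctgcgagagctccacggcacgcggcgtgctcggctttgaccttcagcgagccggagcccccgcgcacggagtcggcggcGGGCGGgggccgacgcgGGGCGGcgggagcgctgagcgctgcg
Igf2r (chr17:12769707-12769956, minus strand): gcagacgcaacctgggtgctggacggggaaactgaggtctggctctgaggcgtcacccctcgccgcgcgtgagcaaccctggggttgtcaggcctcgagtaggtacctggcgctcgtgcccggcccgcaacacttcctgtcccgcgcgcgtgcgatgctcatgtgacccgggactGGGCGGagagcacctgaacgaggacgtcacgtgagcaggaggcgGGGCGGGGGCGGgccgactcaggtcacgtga
A TATA box lay before Igfbp4 and Igfbp6, and a CCAAT box before this start of Igf1 and before Igfbp6 (2 copies). GC boxes lay before Igf1r (2 copies) and Igf2r (3 copies, of which 2 adjoin each other). Over all 9 genes there were 10 windows, since Igfbp2 has 2 starts. Of these 10, 2 held a TATA box, 4 a GC box and 2 a CCAAT box. Among 32851 RefSeq promoter windows of the same length, 12.4% held a TATA box, 32.7% a GC box and 33.8% a CCAAT box. The G and C content was 77.6% before Igf1r and 49.6% before Igfbp6, against a median of 52.4% over all windows.

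On the same build, GENCODE release M21 places Igf1 on chromosome 10 from 87858265 to 87937042, Igf1r on chromosome 7 from 67952827 to 68233668 and Igf2r on chromosome 17 from 12682406 to 12769664. Igfbp2 (72824503 to 72852474) and Igfbp5 (72857932 to 72874884) are neighbours on chromosome 1, on opposite strands with 5457 bases between them. Igfbp3 (7206086 to 7213923) and Igfbp4 (99041244 to 99054392) lie on chromosome 11, Igfbp6 on chromosome 15 from 102144362 to 102149511 and Igfbp7 on chromosome 5 from 77349240 to 77408041. SmartSeq2 libraries carry no strand, and exons of Igfbp7 overlap those of Polr2b on the other strand, so some reads of the pair cannot be told apart. Polr2b was given 10150 reads in the cells used, against 53973, 137609 and 73089 for Igfbp7 at the 3 ages. The antisense gene Airn spans part of Igf2r and Igf1os part of Igf1, with no overlap of exons.

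Cells with fewer than 1000 genes, fewer than 50000 gene reads, or 20% or more mitochondrial reads were set aside. Of the cells used, 68 were of postnatal day 3, 15, 70 and 69 were of plates 1, 3 and 4 of 2 months, and 15 were of 24 months (5 on each plate). Median gene reads per cell were 1100490, 677688 and 2733860 at the 3 ages. Reads of ERCC spike-ins, RNA added in a fixed amount to each well, took a median of 5.88% to 11.5% of a well's reads on plates 9, 3 and 4, 76.01% on plate 1, and 95.1% to 98.9% on the plates of 24 months. No pair of wells shared its index sequences and no pair of cells held identical values. All 8 markers on the chondrocyte list had reads on plates 9, 1, 3 and 4 (summed level 60684 to 81891 reads per 1000000 gene reads, CPM) and 2 to 4 of the 8 on the plates of 24 months (2858 to 11599 CPM), where Cnmd was at 0. The blood cell list summed to 0 to 7.84 CPM and the endothelial list to 0 to 3.91 CPM on any plate. Since the labels name no animal, an age is treated as 1 sample and differences carry no p-value. Plates of an age are shown to describe its spread. Batch and age cannot be told apart, except that plates 9, 2 and 12 share batch 3.

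**Figure D1:**
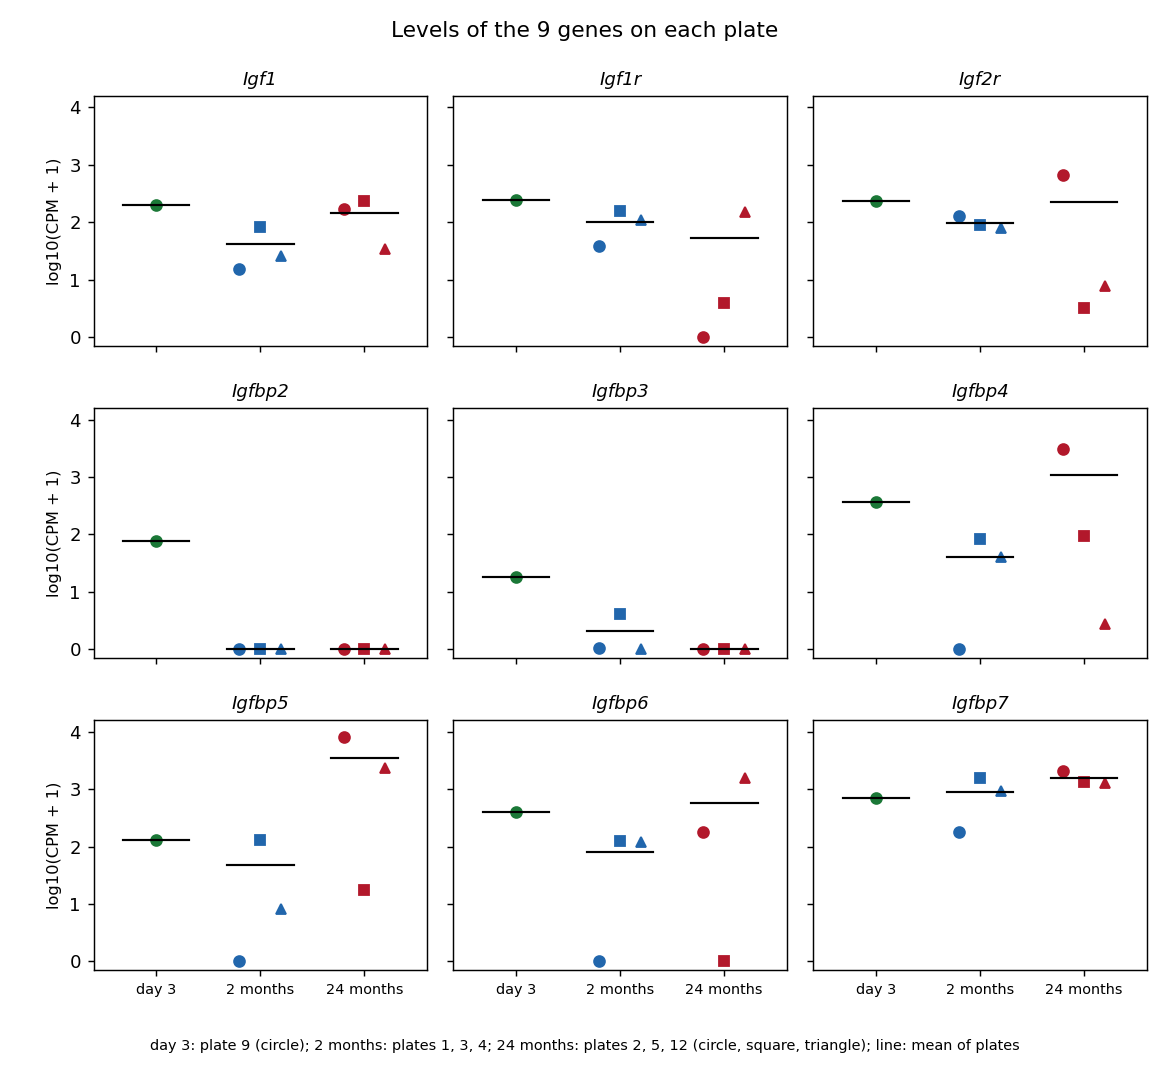
Level of each of the 9 genes on each plate, as log10(CPM + 1) on the vertical axis, by age on the horizontal axis. Each point is the summed reads of the used cells of a plate, the black line is the mean of the plates of an age, and postnatal day 3 has a single plate. Igfbp2 and Igfbp3 lie at 0 on all 3 plates of 24 months, and the plates of 24 months spread widely for Igf2r, Igfbp4, Igfbp5 and Igfbp6.

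The mean level was lowest at 2 months for 5 of the 9 genes (Igf1, Igf2r, Igfbp4, Igfbp5 and Igfbp6). The ligand, the receptors and 4 of the 6 binding proteins were lower at 2 months than at postnatal day 3, and Igfbp2 had no read in any cell of 2 months. Between 2 and 24 months the level of Igfbp5 went from 46.1 to 3515 CPM and that of Igfbp4 from 40.01 to 1077 CPM, but the plates of the 2 ages overlapped for each gene. To be called different, a gene needed 10 CPM or more at one of the ages, a ratio of 2 or more between the plate means, and plate ranges that did not overlap. With 1 plate at postnatal day 3, the last condition is met more easily than between 2 ages of 3 plates each.

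By this rule 7 of the 9 genes were higher at postnatal day 3 than at 2 months and 0 were lower, where 28.1% of the 9656 genes tested were higher and 10.1% lower (38.3% called in either direction). The median log2 fold was 2.27 over the 9 genes and 0.23 over all genes tested, on the log2(CPM + 1) scale used for all folds. Against postnatal day 3, 1 of the 9 (Igfbp7) was higher at 24 months and 3 (Igf1r, Igfbp2 and Igfbp3) were lower, where 2.62% of 9062 genes were higher and 53.7% lower (56.3% in either direction). Their median log2 fold was -0.03, against -1.94 over all genes tested. For 24 against 2 months, 7 of the 9 reached the level of 10 CPM and 0 met the rule, where 1.56% of 8804 genes were higher and 29.7% lower (31.2% in either direction). There the median log2 fold was 1.84 for the 7 genes and -1.56 for all genes tested. The medians are the same with each gene at 0 at an age set to the bound that 3 reads give. All 8 genes of a list of fibroblast and tendon markers had reads at postnatal day 3, with a summed level of 20502 CPM. At 2 months the list summed to 1551, 5683 and 2530 CPM on plates 1, 3 and 4, with 3, 8 and 8 genes read, and its part in the difference was not tested. The comparisons share their samples, so their folds are not independent of each other.

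The ligand Igf1 was higher in newborn cells than in cells of 2 months, and its plates of 24 months spread over both. Its level was 199.3 CPM at postnatal day 3. It was 14.6, 81.1 and 24.9 CPM on plates 1, 3 and 4 of 2 months and 170.05, 234.9 and 33.2 CPM on plates 2, 5 and 12 of 24 months. The newborn plate thus stood above every plate of 2 months, and those of 24 months reached from within the 2-month range to above the newborn value. The log2 fold was 2.28 for postnatal day 3 against 2 months, which met the rule, and 1.84 for 24 against 2 months, which did not. The latter did meet it without plate 3 (2.83) or without plate 12 (2.30). A random draw of 50000 reads was taken from each cell, which left out no cell. In these thinned cells 18 of 68 newborn cells held an Igf1 read (26.5%, exact 95% binomial interval 16.5% to 38.6%), 25 cells of 2 months (16.2%, 10.8% to 23.02%) and 4 of 15 at 24 months (26.7%, 7.79% to 55.1%). With all reads these were 18, 33 and 4 cells. Intervals cover counting error only. In the cells that held it, the median level was 541 CPM at postnatal day 3, 49.2 CPM at 2 months and 567 CPM at 24 months.

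**Figure D2:**
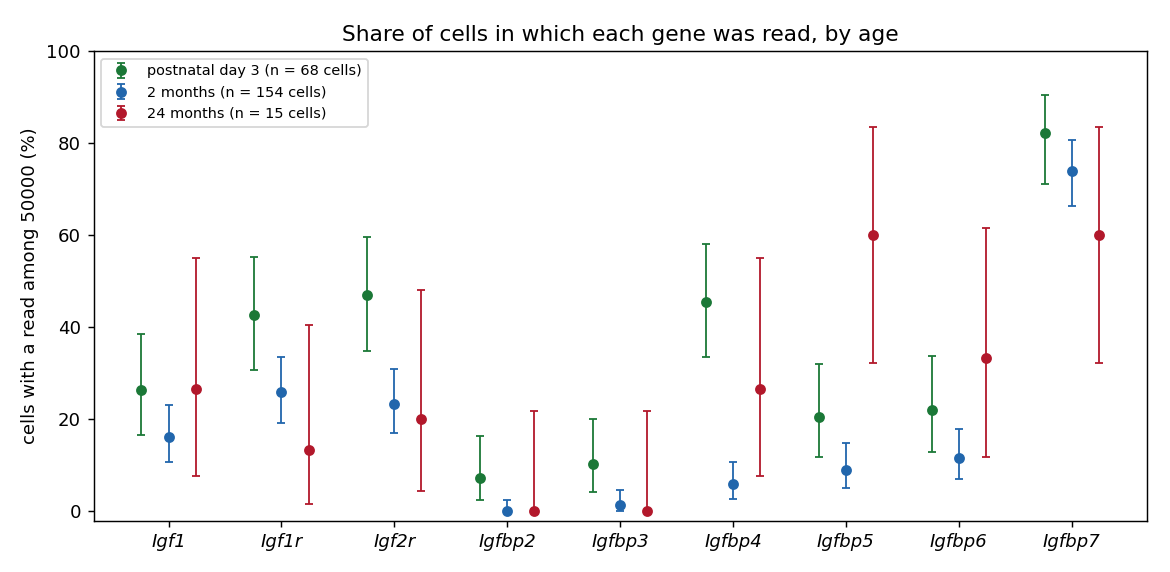
Share of cells with at least 1 read of each gene among 50000 reads per cell, in percent on the vertical axis, for each gene and age. Points are shares of cells and bars are exact 95% binomial intervals, which cover counting error only. The share for Igfbp5 was 20.6%, 9.09% and 60% at the 3 ages, and that for Igfbp4 45.6%, 5.84% and 26.7%.

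The signalling receptor Igf1r was read most often in newborn cells and in few of the oldest cells. Its level was 239.04 CPM at postnatal day 3, then 37.7, 153.2 and 110.5 CPM on plates 1, 3 and 4 of 2 months, and 0, 2.99 and 150.8 CPM on plates 2, 5 and 12 of 24 months. Nearly all of the 24-month signal was 1 cell of plate 12 with 622 CPM, and the only other cell with a read had 11.1 CPM. Igf1r was 2.38-fold higher at postnatal day 3 than at 2 months (log2 fold 1.24) and 4.66-fold lower at 24 months than at postnatal day 3 (log2 fold -2.20), and each met the rule. Without plate 1 the first of these came to a log2 fold of 0.85, and with each cell weighted equally also to 0.85, which end the call. In cells of 1000 to 1700 genes the 2 folds turned to -3.61 and 3.02, with 9 newborn cells left. Without the cell filter the second came to -0.44. The share of thinned cells with an Igf1r read was 42.6% (30.7% to 55.2%) at postnatal day 3, 25.97% (19.2% to 33.6%) at 2 months and 13.3% (1.66% to 40.5%) at 24 months. The interval of 24 months overlaps those of both other ages. For 24 against 2 months the log2 fold was -0.96, which did not meet the rule, and -5.35 without plate 12, which did.

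Igf2r, the receptor that clears Igf2, was about as high as Igf1r in newborn cells and rested on very few cells at 24 months. Its level was 231.5 CPM at postnatal day 3, 124.9, 89.4 and 77.4 CPM on plates 1, 3 and 4, and 672, 2.24 and 6.74 CPM on plates 2, 5 and 12. A single cell gave 91.6% of the Igf2r reads of plate 2, and the mean of 24 months was 227.02 CPM. Postnatal day 3 was 2.38-fold above 2 months (log2 fold 1.24), which met the rule. That fold turned to -2.70 in cells of 1000 to 1700 genes. For 24 against 2 months the log2 fold was 1.21, and for 24 months against postnatal day 3 it was -0.03. Without plate 2 these came to -4.16 and -5.40, and each then met the rule. Igf2r was read in 47.1% of thinned newborn cells (34.8% to 59.6%), 23.4% at 2 months (16.9% to 30.9%) and 20% at 24 months (4.33% to 48.1%). With all reads, 46, 64 and 7 cells held a read.

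Igfbp2 and Igfbp3 were genes of the newborn plate alone or nearly so. Igfbp2, a binding protein abundant in fetal tissues, had 74.3 CPM at postnatal day 3 and no read in any cell of 2 or 24 months. All of its 5610 reads came from 5 of the 68 newborn cells, with 315 to 1909 CPM in those cells. The highest of these cells held 73.3% of the reads, and without the top cell the log2 fold against 2 months went from 6.24 to 4.42. Against a floor of 3 reads per age, the level was at least 3105-fold lower at 2 months and at least 1068-fold lower at 24 months. Such bounds, here and for other genes, count reads in the cells used and do not cover which cells were sampled or that PCR reads are not independent molecules. With 3 cells as the limit, a count of 0 cells allows a share of up to 1.95% at 2 months and 20% at 24 months (exact upper limits 2.37% and 21.8%), against 7.35% of newborn cells. Igfbp3, the main carrier of IGF in serum, had 16.9 CPM at postnatal day 3 in 7 cells. It had 0.05, 3.09 and 0 CPM on plates 1, 3 and 4, from 1 read on plate 1 and all other reads in a single cell of plate 3, and no read at 24 months. The level at postnatal day 3 was 16.2-fold that of 2 months (log2 fold 3.13) and at least 243.2-fold that of 24 months. In cells of 1000 to 1700 genes Igfbp3 no longer met the rule against 2 months (log2 fold 2.74) or 24 months, while Igfbp2 did.

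Igfbp4, an inhibitor of IGF action that Pappa cleaves, was read in about as many newborn cells as the receptors were, and in few cells of 2 months. Its level was 366 CPM at postnatal day 3, 0, 80.9 and 39.1 CPM on plates 1, 3 and 4, and 3135, 94.3 and 1.77 CPM on plates 2, 5 and 12. The newborn value lay above every plate of 2 months, 9.15-fold above their mean (log2 fold 3.16), which met the rule. The plates of 24 months lay on both sides of the newborn plate, and the lowest was within the range of 2 months. Their mean was 26.9-fold that of 2 months (log2 fold 4.72), and the log2 fold was 0.26 without plate 2 and 5.30 without plate 12, where it met the rule. Against postnatal day 3 the log2 fold of 24 months was 1.55, and -2.90 without plate 2, which met the rule as lower. It met the rule as higher without the cell filter (1.82) and in cells of at least 500 genes (1.65), both without the mitochondrial limit. In thinned cells, 45.6% of newborn cells (33.5% to 58.1%), 5.84% of 2-month cells (2.71% to 10.8%) and 26.7% of 24-month cells (7.79% to 55.1%) held an Igfbp4 read.

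Igfbp5, a binding protein of bone matrix, reached the highest level of the 9 in a single cell of 24 months. It had 129.1 CPM at postnatal day 3, 0, 131.1 and 7.11 CPM on plates 1, 3 and 4, and 8176, 16.6 and 2352 CPM on plates 2, 5 and 12. Plates 2 and 12 stood far above all plates of the younger ages, while plate 5 fell between the plates of 2 months. The mean of 24 months was 76.3-fold that of 2 months (log2 fold 6.22) and 27.2-fold that of postnatal day 3 (log2 fold 4.76), and neither met the rule because of plate 5. Without plate 5 the log2 folds were 6.81 and 5.34 and each met it, as did the first without plate 3 (9.59). Each also met it without the cell filter (6.09 and 4.60) and in cells of at least 500 genes (5.95 and 4.46), both without the mitochondrial limit. The log2 fold of 5.34 against postnatal day 3, without plate 5, is also the comparison within batch 3. The log2 fold of postnatal day 3 against 2 months was 1.47, with plate 3 at the newborn level, and it met the rule at 4.84 without plate 3. Igfbp5 was read in 60% of thinned 24-month cells (32.3% to 83.7%), 9.09% of 2-month cells (5.06% to 14.8%) and 20.6% of newborn cells (11.7% to 32.1%). These intervals take cells as independent and do not cover differences between plates. On plates 2, 5 and 12 of 24 months the share was 80%, 40% and 60%, with 5 cells each.

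Igfbp6, which binds Igf2 more tightly than Igf1, had 395 CPM at postnatal day 3, 0, 123.4 and 118.9 CPM on plates 1, 3 and 4, and 179.1, 0 and 1577 CPM on plates 2, 5 and 12. With all reads, each of the 5 cells of plate 12 held Igfbp6, whereas no cell of plate 5 did. Postnatal day 3 was 4.89-fold above 2 months (log2 fold 2.27), which met the rule. The log2 fold of 24 against 2 months was 2.84, and 3.43 without plate 5, which then met the rule. Against postnatal day 3, the log2 fold of 24 months was 0.57, and -2.13 without plate 12, also meeting the rule then. Its share of thinned cells was 22.1% at postnatal day 3 (12.9% to 33.8%), 11.7% at 2 months (7.08% to 17.8%) and 33.3% at 24 months (11.8% to 61.6%), and these intervals overlap.

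Igfbp7, a relative with low affinity for IGF, was read in more cells than any other of the 9 at postnatal day 3 and 2 months, and in as many as Igfbp5 at 24 months. Its level was 715 CPM at postnatal day 3, 176.1, 1576 and 930.3 CPM on plates 1, 3 and 4, and 2111, 1328 and 1272 CPM on plates 2, 5 and 12. The 3 plates of 24 months stood close together and above the newborn plate, while the plates of 2 months lay on both sides of it. Igfbp7 was 2.20-fold higher at 24 months than at postnatal day 3 (log2 fold 1.13) and met the rule, also within batch 3 (log2 fold 1.24). Without plate 2 it came to 0.86, without the cell filter to 0.40, and with the top cell of each plate left out to -0.16, which end the call. The log2 folds of 24 months and of postnatal day 3 against 2 months were 0.81 and -0.32 and did not meet the rule, though the first came to 1.503 without plate 3 and then met it. It was read in 82.4% of thinned newborn cells (71.2% to 90.5%), 74.03% of 2-month cells (66.4% to 80.8%) and 60% of 24-month cells (32.3% to 83.7%). Among 2-month plates the share was 26.7% on plate 1, 84.3% on plate 3 and 73.9% on plate 4.

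Within batch 3, where plates 2 and 12 of 24 months can be set against the newborn plate, Igf1r (log2 fold -1.65), Igfbp2 and Igfbp3 were lower and Igfbp5 and Igfbp7 higher at 24 months. In that comparison 5.58% of 8917 genes were higher and 61.9% lower.

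Levels of different genes were set side by side per kilobase of the longest annotated transcript. By the mean of the plates Igfbp7 led at each age, with 596, 745 and 1309 CPM per kilobase at postnatal day 3, 2 months and 24 months. At postnatal day 3 Igfbp6 (355 CPM per kilobase), Igfbp4 (95.5) and Igfbp2 (56.9) followed, then Igf1 (28.3), Igf2r (26.04), Igfbp5 (21.5) and Igf1r (20.95), which lay close together, and Igfbp3 (6.996). That age has a single plate, so no spread stands behind its order. At 2 months Igfbp6 (72.6) came next, with plates from 0 to 111.01, and Igf2r, Igfbp4, Igf1r, Igfbp5 and Igf1 lay between 10.9 and 5.70 with overlapping plates. At 24 months Igfbp5 (585), Igfbp6 (526) and Igfbp4 (281.1) took the next places, and their plates overlapped, with lowest plates of 2.76, 0 and 0.46. On plate 12 Igfbp6 stood above Igfbp7 (1418 against 1060 CPM per kilobase). In the same age Igf1r stood at 4.49 CPM per kilobase, with plates from 0 to 13.2.

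The sorted cells were not all alike. At postnatal day 3 the level of 8 of the 9 genes differed at least 2-fold between cells with and without a read of the cartilage gene Cnmd. Cells were split by whether they held a read of Cnmd, the cartilage glycoprotein chondromodulin, among 50000 reads. This gave 42 positive and 26 negative cells on plate 9, 50 and 20 on plate 3 and 48 and 21 on plate 4, with 2 cells of plate 3 at a single Cnmd read. All 15 cells of 24 months were negative. Within plates the split was described on plates 9, 3 and 4 only, and cells of a plate are not replicates. Plate 1, with 7 positive and 8 negative cells, enters the later comparisons of ages within a class. Genes at least 2-fold higher in positive cells made up 30.1%, 44.1% and 40.9% of the genes tested on plates 9, 3 and 4, and those at least 2-fold higher in negative cells 28.8%, 28.5% and 30.6%.

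**Figure D3:**
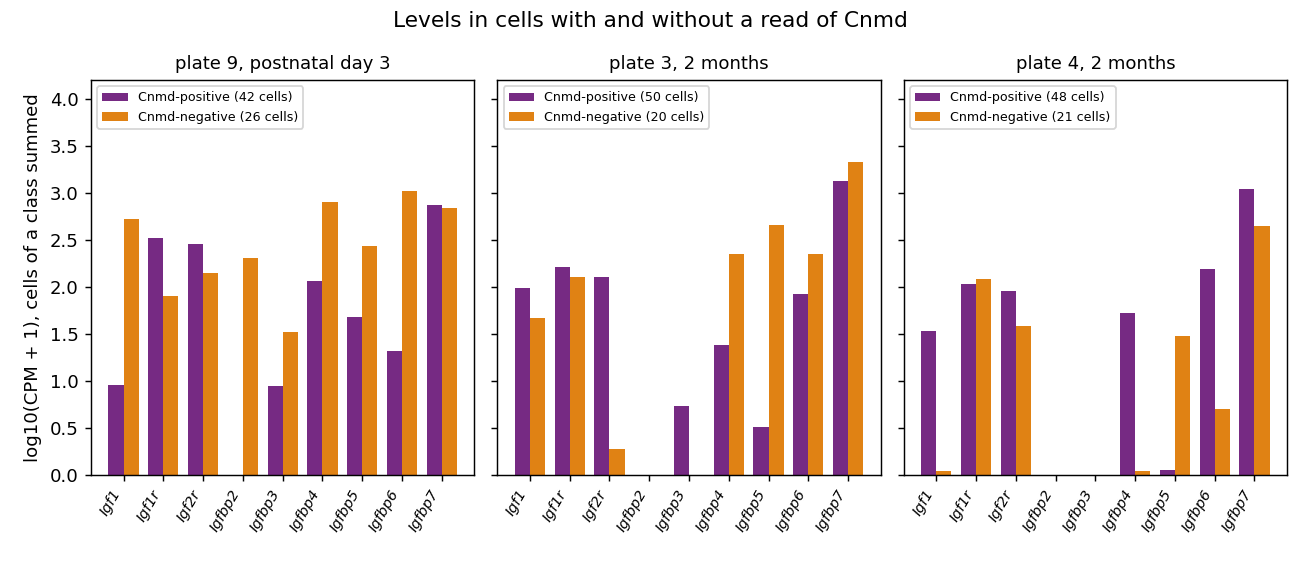
Level of each gene as log10(CPM + 1) on the vertical axis in Cnmd-positive (purple) and Cnmd-negative (orange) cells of plates 9, 3 and 4. Each bar is the summed reads of the cells of a class on that plate. Igf2r is higher in positive cells and Igfbp5 in negative cells on all 3 plates, while Igf1 is higher in negative cells on plate 9 and in positive cells on plates 3 and 4.

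In newborn cells the ligand and most binding proteins were on the Cnmd-negative side and the receptors on the positive side. Igf1 had 528 CPM in negative and 8.05 CPM in positive cells, with reads in 15 of 26 and 3 of 42 thinned cells. Igfbp6 had 1039 against 19.9 CPM (14 of 26 and 1 of 42 cells), and Igfbp4 798 against 114.8 CPM (21 of 26 and 10 of 42 cells). Igfbp2 was read in negative cells alone, 5 of 26, at 202.1 CPM. Igfbp5 (271.5 against 46.3 CPM) and Igfbp3 (32.5 against 7.90 CPM) were also higher in negative cells. Igf1r had 332 CPM in positive and 79.2 CPM in negative cells, and Igf2r 284.8 and 139.9 CPM. Igfbp7 did not separate the classes, with 734 and 683 CPM.

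At 2 months this arrangement held for some genes. Igf2r was higher in positive cells on plates 3 (124.9 against 0.86 CPM) and 4 (90.3 against 36.9 CPM), and Igfbp5 in negative cells (452 against 2.23 CPM and 29.1 against 0.14 CPM). Those 2 genes were at least 2-fold apart in the same direction on all 3 plates. The share of all genes tested that did so on all 3 is not given here. The ratio of Igf2r on plate 9 was 2.04, and on plate 4 1 cell held 95.5% of the 337 Igfbp5 reads of negative cells. Igf1 went the other way from the newborn plate, with 95.5 CPM in positive and 45.2 CPM in negative cells of plate 3, and 32.8 against 0.09 CPM on plate 4, where negative cells held 1 read. On plate 3 Igf1 was less than 2-fold apart when the split used all reads or needed 2 Cnmd reads, and it was higher in negative cells when the split used Col2a1. Igfbp4 and Igfbp6 were higher in negative cells of plate 3 (224.3 against 23.3 CPM and 222.9 against 83.5 CPM) but in positive cells of plate 4 (51.6 against 0.09 CPM and 155.4 against 4.05 CPM). On plate 3, 1 negative cell held 88.9% of the Igfbp4 reads of its class, and another held 80.6% of the Igfbp6 reads. When cells were split on Col2a1, the main collagen of cartilage, instead of Cnmd, Igfbp5 and Igfbp4 were the 2 genes at least 2-fold apart in the same direction on all 3 plates, both higher in negative cells. Igf2r was then less than 2-fold apart on plate 9. This split left 7, 13 and 24 Col2a1-negative cells on plates 3, 4 and 9. The share of all genes tested that went the same way on all 3 plates under it is not given here.

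Markers of other cell types moved with the same split. The list of fibroblast and tendon genes (Postn, Col14a1, Aspn, Dcn, Lum, Tnmd, Scx and Col3a1) summed to 46222 CPM in negative and 5532 CPM in positive newborn cells, and the chondrocyte list to 1934 and 118476 CPM. On plate 3 the fibroblast and tendon list summed to 13195 and 2664 CPM, and on plate 4 to 3369 and 2263 CPM. The chondrocyte list summed to 24505 CPM in negative and 89867.5 CPM in positive cells of plate 3, and to 14942 and 103160 CPM on plate 4. Negative cells of these 2-month plates thus held more cartilage transcripts than negative newborn cells. The osteoblast list summed to 49097 CPM in negative and 13357 CPM in positive newborn cells, to 14136 and 8929 CPM on plate 3 and to 79837 and 5409 CPM on plate 4. Col1a1 alone gave 47885.5 and 12284.6 CPM of the newborn sums. Alpl (1062.8 and 87.7 CPM), Sp7 (101.1 and 37.1 CPM) and Bglap (11.8 and 0 CPM) were also higher in negative newborn cells. Ibsp (14.5 and 512.6 CPM) and Spp1 (0.04 and 410.6 CPM) were higher in positive ones. Runx2 was similar in both (21.3 and 24.9 CPM), and Dmp1 had no read. The part that cells with markers of these lists play in the levels by age was not tested. In negative cells alone, postnatal day 3 stood above 2 months for 6 genes (Igf1, Igf2r, Igfbp2, Igfbp3, Igfbp4 and Igfbp6), where 36.6% of 9282 genes were higher and 5.76% lower, and Igf1r did not differ by the rule (log2 fold -0.064). In positive cells alone Igf1r, Igf2r, Igfbp4 and Igfbp5 were higher at postnatal day 3, where 29% of 9306 genes were higher. There Igf1 was lower (8.05 against a mean of 50.5 CPM, log2 fold -2.51), where 9.6% of genes were lower. Against negative newborn cells, the 24-month cells had less Igf1 (log2 fold -1.85), Igfbp2 and Igfbp3 and more Igfbp7 (log2 fold 1.199), where 50.7% of 8416 genes were lower and 3.07% higher. For 24 against 2 months in negative cells, 1.7% of genes were higher and 10.7% lower, and 0 of the 9 met the rule. These splits of the age comparisons were added after the data were seen. Their 2-month means include plate 1, with 7 positive and 8 negative cells. The negative cells of plate 1 had a median of 109306 gene reads.

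**Figure D4:**
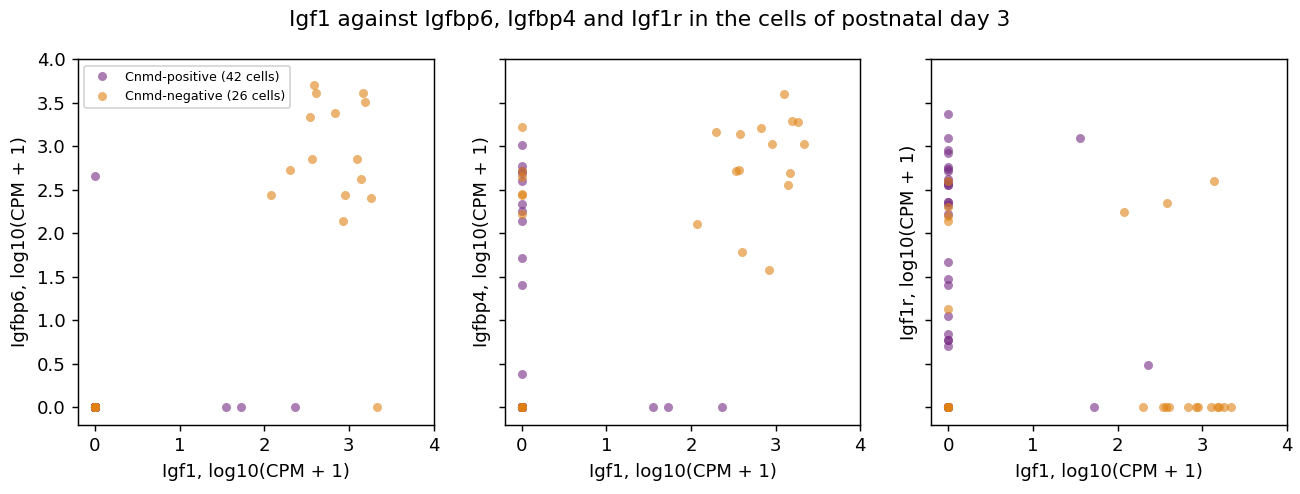
Level of Igfbp6, Igfbp4 and Igf1r on the vertical axes against Igf1 on the horizontal axis in the 68 cells of postnatal day 3, as log10(CPM + 1) of all reads. Each point is a cell, purple with and orange without a Cnmd read. Of the 18 cells with Igf1, 14 also held Igfbp6, 15 Igfbp4 and 5 Igf1r in thinned reads.

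The newborn cells that held Igf1 also held several binding proteins. Among 18 newborn cells with an Igf1 read after thinning, 14 held Igfbp6 (77.8%), against 2% of the 50 cells without Igf1. Igfbp4 was in 15 of the 18 (83.3%, against 32%), Igfbp5 in 10 (55.6%, against 8%) and Igfbp3 in 6 (33.3%, against 2%). Igf1r went with Igf1 in 5 of the 18 (27.8%, against 48%). Across the 68 cells of this plate Spearman's rho of Igf1 and Igfbp6 was 0.82, of Igf1 and Igfbp4 0.56 and of Igf1 and Igf1r -0.21, as descriptions of cells that share a plate, with the 2 Cnmd classes among them.

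The same held inside the Cnmd-negative newborn cells. All 14 cells with Igfbp6 held Igf1, all 15 cells with Igf1 held Igfbp4 and Igfbp7, and all 6 cells with Igfbp3 held Igf1 and Igfbp6. Every cell with Igf1 or Igfbp6 was among the 17 of 26 that held Col14a1, a collagen of tendon and fascia, and none was among the other 9. Igfbp4 was in 16 of those 17 and in 5 of the 9. Of these 26 cells, 15 held at least 4 of the 9 genes (57.7%), against 9 of the 42 Cnmd-positive newborn cells (21.4%), 7 cells at 2 months (4.55%) and 3 of 15 at 24 months (20%). At 2 months 6 of 25 Igf1 cells held Igfbp6 (24%, against 9.30% of the others) and 5 of 25 held Igfbp4 (20%, against 3.10%).

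The 15 cells of 24 months differed widely from each other. They are numbered within their plate in the order of the table. On plate 2, cells 2 and 4 had the highest levels of Igfbp5, 12694 and 14974 CPM, together with Igfbp4 (12928 and 2400.0 CPM) and Igfbp7 (7452 and 1831 CPM). These 2 cells also had 39332 and 70211 CPM of Cxcl12, the chemokine of marrow stroma. Cells 3 and 5 of plate 2 had Igfbp5 at 7354 and 4813 CPM and no read of Cxcl12. Cell 2 of plate 5 had Cxcl12 at 25461 CPM and Igfbp4 at 771 CPM but Igfbp5 at 55.7 CPM. On plate 12 no cell had a read of Cxcl12, and Igfbp5 (6714 CPM in cell 2 and 2323 CPM in cell 5) and Igfbp6 (3805 CPM in cell 4 and 2234 CPM in cell 5) were high there. Igf1 was in 4 cells, at 803, 179.3, 1160.1 and 331 CPM. No read of any of the 9 genes was in 3 cells, cell 1 of plate 2 and cells 1 and 4 of plate 5, which had the highest Col1a1, the main collagen of bone (147614, 115155 and 74173 CPM).

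**Figure D5:**
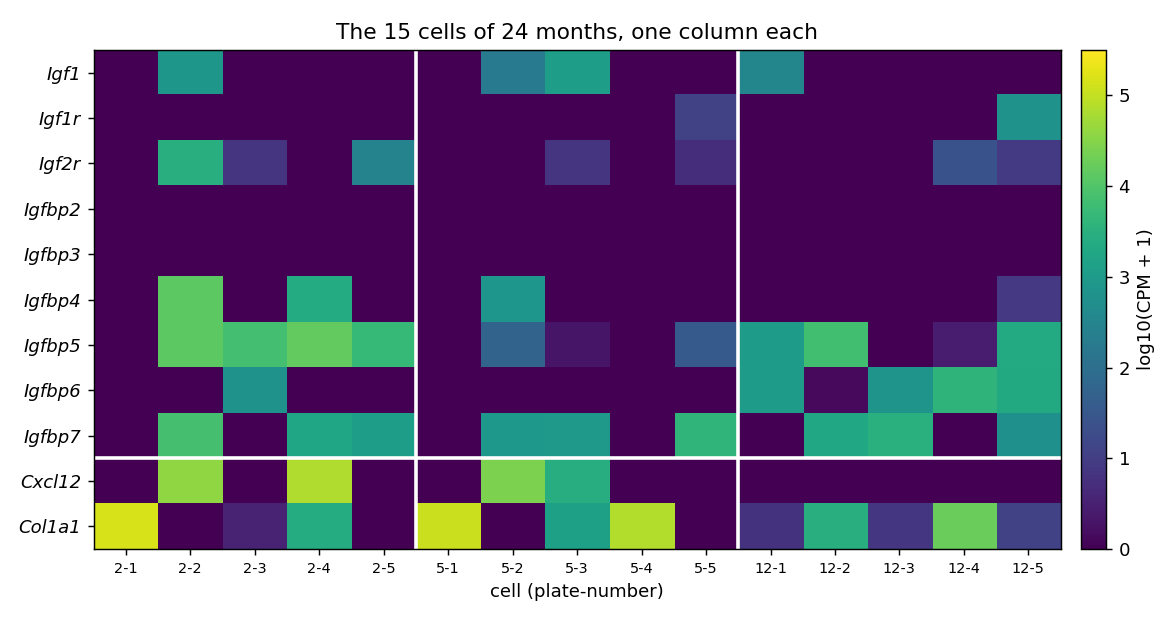
Level of the 9 genes, Cxcl12 and Col1a1 as log10(CPM + 1), shown as colour, in each of the 15 cells of 24 months. Columns are cells named by plate and number, and white lines part the plates. Igfbp5 reaches 14974 CPM in cell 2-4, and cells 2-1, 5-1 and 5-4 hold none of the 9 genes.

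The marrow stroma list (Cxcl12, Lepr, Adipoq, Kitl, Ebf1 and Ebf3) summed to 23129, 5509 and 4759 CPM on plates 2, 5 and 12, with 6, 5 and 1 of 6 genes read, against 0.24 to 178.3 CPM on the plates of 2 months and 406 CPM at postnatal day 3. The part of these cells in the 24-month levels was not tested.

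Among genes other than the 9 themselves, those whose levels went most with a member were taken from the plates where the member was read in at least 20% of thinned cells. They are given as Spearman's rho across cells of a plate, averaged over plates, and describe cells that share a library plate and a depth. For Igf1 these were Fstl1, a secreted glycoprotein (rho 0.41), and the collagens Col1a1 (0.41) and Col3a1 (0.41), over the cells of plates 3 and 9. For Igfbp4 they were Aspn (0.66), Plpp1 (0.64) and Postn (0.63), for Igfbp5 C1qtnf2 (0.62), Frmd6 (0.51) and Vcan (0.51), and for Igfbp6 Nbl1 (0.72), Tppp3 (0.71) and Tmsb4x (0.67), each over the 68 cells of plate 9. On that plate Igf1 had a higher rho with Igfbp6 (0.82), and Igfbp6 (0.57) and Igf1 (0.54) had a higher rho with Igfbp5 than Frmd6 and Vcan did. Aspn and Postn are matrix proteins of periosteum and tendon and stand on the fibroblast and tendon list. The widely read genes had weaker partners over the cells of plates 3, 4 and 9. These were Fkbp10, Fibin and Chadl for Igf1r (0.32, 0.26 and 0.25), Ucma, Rab28 and Col9a2 for Igf2r (each 0.25), and Gnas, Pam and Gm9780 for Igfbp7 (0.32, 0.29 and 0.29). Ucma and Col9a2 are cartilage matrix genes. Igf1r and Igf2r had a rho of 0.02 with each other.

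Of 46 further genes of the pathway, 36 reached the minimum level for postnatal day 3 against 2 months, of which 16 were higher and 6 lower. These were 44.4% and 16.7%, where 28.1% of all genes tested were higher and 10.1% lower. For 24 against 2 months 0 of 30 were higher and 7 lower (23.3%), where 1.56% of all genes were higher and 29.7% lower. For 24 months against postnatal day 3, 3 of 35 were higher (8.57%) and 19 lower (54.3%). There 2.62% of all genes were higher and 53.7% lower. The median log2 folds were 0.82, -0.28 and -1.57, against 0.23, -1.56 and -1.94 over all genes tested. The other ligand, Igf2, had 1937 CPM at postnatal day 3, 0 to 8.18 CPM on the plates of 2 months and 0 to 10.01 CPM on those of 24 months. Among regulators of binding protein cleavage, Stc1, an inhibitor of Pappa, had 23.7 CPM at postnatal day 3 and no read at 2 months (at least 991-fold higher), and the protease Adamts1 was 11.04-fold higher at postnatal day 3 (91.3 against 8.27 CPM).

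Signalling genes gave 4 of the 7 lower calls against 2 months (19 of them tested) and 12 of the 19 against postnatal day 3 (22 tested). Stat5a, which relays growth hormone, had 6.13 to 562 CPM on the plates of 2 months, 0.66 CPM at postnatal day 3 and 0 to 0.18 CPM at 24 months. Grb10, an adaptor that restrains the receptor, had 764 CPM at postnatal day 3, 171.3 to 476 CPM at 2 months and 0 to 13.2 CPM at 24 months. Pdpk1, a kinase upstream of Akt, had a mean of 37.7 CPM at 2 months and no read at 24 months (at least 541-fold lower). Its plates of 2 months ranged from 0.097 to 64.7 CPM, so the lowest was close to 0. Foxo1, a transcription factor that Akt holds out of the nucleus, had 95.9 to 217.95 CPM at 2 months and 0 to 18.4 CPM at 24 months. The adaptor Shc1 and the RNA-binding Igf2bp2 had 157.1 and 113.7 CPM at postnatal day 3 and no read at 24 months, at least 2256-fold and 1633-fold lower. These bounds, and that of Stc1, count reads in the cells used and do not cover which cells were sampled. In the same comparisons 29.7% and 53.7% of all genes tested were lower.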

How the data were processed

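The table holds expected counts per gene, which RSEM estimates and the authors deposited without normalization. Per the submitters' processing notes, bcl2fastq 2.18, STAR 2.4 and RSEM 1.2.21 were used with build GRCm38.p6. The annotation and filters are not given in the sources used here. Each column was matched to a sample through the plate, well, age and indices in its name. No sample matched 1 column, which stayed unused. Values were rounded to whole numbers, which changed none of the values of the 9 genes, and 92 spike-in rows were kept out of totals.

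Used cells had at least 1000 genes, 50000 gene reads and under 20% mitochondrial reads, which 237 of 670 wells met. A plate's level is the reads of its used cells over their total gene reads (CPM), and an age is the mean of its plates. Folds are log2 ratios of these means with 1 CPM added. Where an age had no read, a fold is against 3 reads over that age. Used cells had 62919 to 5994911 gene reads. Shares were taken after thinning each cell to 50000 reads, with exact 95% binomial (Clopper-Pearson) intervals. The size rule was also run on simulated data. The outcome is not given here, so that run says nothing about how often the rule errs on these plates. Plates describe the spread of an age and are not taken as replicates, since no label says that they came from separate animals.

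The 9 genes, the lists, the rule and the tests were chosen with earlier results of these data known. All 9 genes are named. Other pathway genes are named where they met the rule, at most 4 per comparison by size of fold, and the 3 genes with the highest mean rho per member. Tables were made with pandas 2.3.3 and numpy 2.4.6 in Python 3.11.15, intervals with scipy 1.17.1 and plots with matplotlib 3.10.9. TMM factors came from edgeR 4.0.16 (R 4.3.3). Alternatives were other cell filters, pseudocounts, TMM scaling, equal weight per cell, no minimum level, values as deposited, leaving out top cells or plates, other depths of thinning, other splits of cells, Pearson's r, and, added after seeing the data, each Cnmd class alone.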

Additional observations from a re-analysis of the deposited data

Results flagged for a closer look

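Igf1 differed between Cnmd-positive and Cnmd-negative cells in one direction on the newborn plate and in the other on plates 3 and 4 of 2 months. The log2 fold of positive over negative cells was -5.87 on the plate of postnatal day 3, 1.06 on plate 3 and 4.96 on plate 4 of 2 months. The direction on plate 3 did not hold under other splits, being less than 2-fold with all reads or with at least 2 Cnmd reads and that of the newborn plate when cells were split on Col2a1. The difference between the ages was not tested. On plate 4 negative cells held 1 read of Igf1, on plate 3 1 cell held 97.003% of the reads of the negative class, and at postnatal day 3 the highest cell held 16.4%.

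Wells left out of the comparisons also held reads of the 9 genes. There were 1320 such reads in 7 wells of postnatal day 3, 16645 in 34 wells of 2 months and 470539 in 61 wells of 24 months. These wells were 25.9%, 25.6% and 22.3% of those left out at the 3 ages. At 24 months Igfbp5 had the most of these reads, 230510. Summed over the left-out wells, the 9 genes took 1439 CPM at postnatal day 3, 547 CPM at 2 months and 5555 CPM at 24 months, against 2366, 1572 and 8898 CPM in the cells used.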

How the results depend on the processing

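Of the 9 genes, 0 met the size rule for 24 against 2 months, and this count moved to 2 with no cell filter and to 2 with cells of at least 500 genes (65 cells), higher for Igfbp4 (log2 folds 3.56 and 3.28) and Igfbp5 (6.09 and 5.95) each time. It moved to 6, all lower, with at least 2000 genes and 200000 reads, which leaves 1 cell at 24 months, and to 1 without the top cell of each plate (Igf1r lower, -6.22). Leaving out each plate in turn it ranged from 0 (plate 1 or 4) to 3 (plate 3 or 12), with 1 without plate 2 and 2 without plate 5. For 24 months against postnatal day 3 the count of 4 moved to 9, all lower, at 2000 genes. That setting turned Igfbp7 to a log2 fold of -9.59, and leaving out top cells turned it to -0.16. Cells of 1000 to 1700 genes turned Igf1r to 3.02 in that comparison, and turned Igf1r to -3.61 and Igf2r to -2.70 for postnatal day 3 against 2 months. For the last comparison Cnmd-negative cells turned Igf1r to -0.064, and Cnmd-positive cells turned Igf1 to -2.51 and Igfbp6 to -1.95. With Pearson's r on all reads, 13 of the 21 genes most like a member remained. The causes were not tested. The count of 7 higher for postnatal day 3 against 2 months ranged from 5 to 8 in either direction. With 1000 to 1700 genes it was 4 higher and 2 lower, and 4 of the 7 calls remained. In Cnmd-positive cells it was 4 higher and 1 lower, and 3 remained. TMM scaling, both pseudocounts, no minimum level and values as deposited gave the same calls in all 3 comparisons. No paired analysis was possible because the labels name no animal, and no result comes from a test. A title code (M1) recurs at postnatal day 3 and 24 months, but no label says that it names an animal. With 15 cells at 24 months, a share of 0 has an exact upper limit of 21.8%.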
